A study of Mus musculus with 19 samples.

Results

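CD8 T cells of the mouse that had been activated for 72 h and that expressed Stat5ca, a constantly active form of the transcription factor STAT5, were compared with naive CD8 T cells at the level of RNA. The comparison takes all arrays that the labels give to these groups: 2 Stat5ca arrays (9 and 10) and 4 naive arrays (33 to 36), which are 6 of the 19 arrays in the series, and 19938 genes. The 4 arrays of control effector cells (1 to 4), activated for 72 h without Stat5ca, are given beside them to show where the Stat5ca cells stood apart from other activated cells. All these cells were purified CD8 T cells of mice that carry the TCRP1A transgene and lack Rag-1 (Rag-1-/-) on the B10.D2 background, so nearly all of their T cells should bear the same T-cell receptor. The effector cells had been activated by their cognate antigen, per the series' design text, and the labels describe the Stat5ca cells as transduced and GFP+. No array of cells transduced without Stat5ca was analysed here, so active STAT5, the transduction and the selection of GFP+ cells cannot be told apart. The naive cells differ from the Stat5ca cells in activation as well, and the labels give no transduction for them.

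STAT5 is the name of a pair of closely related proteins, STAT5A and STAT5B, that carry the signal of interleukin-2, interleukin-7 and interleukin-15 from the receptor's Janus kinases to the nucleus. In CD8 T cells this signal is known for driving growth and division after activation, for inducing the high-affinity interleukin-2 receptor and granzyme B, and for inducing its own inhibitors, CIS and the SOCS proteins. In naive cells, interleukin-7 acts through the same proteins to keep resting cells alive.

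Values are log2 signals, so a difference of 1 is a doubling, and a difference is always Stat5ca minus naive unless control is named. Whether arrays of 1 group came from different mice or cultures is not stated in the labels, so the p-values below weigh only the spread from array to array, part of which may be technical. Genes were called at a limma Benjamini-Hochberg adjusted p under 0.05, and the ± after a difference is its standard error from that fit. A value under 7.40, the 95th percentile of 1190 olfactory and vomeronasal receptor genes, is near the background of these arrays. Where a group mean lay under it, the part of a difference above the background is smaller than the difference itself, for example 3.14 for Tpx2, -1.19 for Ccr2, 1.13 for Ccne2, -0.30 for Klrg1 and -0.64 for Ccr8 against control cells, and Il4 has none. The 6 arrays had medians between 7.70 and 7.89, and their RNA integrity numbers were 8 or 9. The T-cell label held on every array. Cd3e, Cd3g, Cd8a and Cd8b1, parts of the receptor complex and of its co-receptor, lay between 12.97 and 13.67 on all 6. The mean over the 6 measured CD8 T-cell genes was 13.01 and 13.03 on the Stat5ca arrays. It was 12.87, 12.62, 12.89 and 12.56 on naive arrays 33 to 36. Of these genes only Cd3d was called, and it was lower in naive cells (0.87).

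The naive arrays did not form 1 tight group. Arrays 34 and 36 carried high signals of myeloid genes, for example 12.47 and 12.02 for Ly6g, a neutrophil surface protein, against 6.71 and 6.80 on arrays 33 and 35. The mean over 18 macrophage and monocyte genes was 7.37 and 7.31 on the Stat5ca arrays, 9.45, 8.69, 8.67 and 9.37 on the control arrays and 8.34, 11.99, 9.33 and 11.82 on the naive arrays. Genes of cell division were also higher on naive arrays 34 and 36. Sex-linked genes varied within and between the groups. Stat5ca array 10 carried both Xist (12.52), expressed by female cells, and the Y-linked Eif2s3y (9.29). Naive array 35 carried both at 12.65 and 7.87, and control arrays 1 and 4 carried the Y-linked gene and arrays 2 and 3 Xist. Of 4 measured sex-linked genes, 3 were higher and 1 was lower on both Stat5ca arrays than on every naive array, and none was called. Sex-linked signal thus differed between these groups too. Its part in the differences below was not tested beyond a fit with the Y-linked level as a covariate. Each count below was repeated without naive arrays 34 and 36, and it is given where it changed by more than 1.5 times or where a named gene lost its call. Purified samples can hold a few other cells, and in bulk RNA fewer cells of a type and less RNA per cell cannot be told apart. The part of such cells in the differences below was not tested beyond these repeats and a fit with the macrophage mean as a covariate. Both Stat5ca arrays lay under every naive and control array in that mean. That fit thus reaches beyond the range that the groups share, and its lost calls and turned signs cannot separate other cells from the comparison itself.

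**Figure D1:**
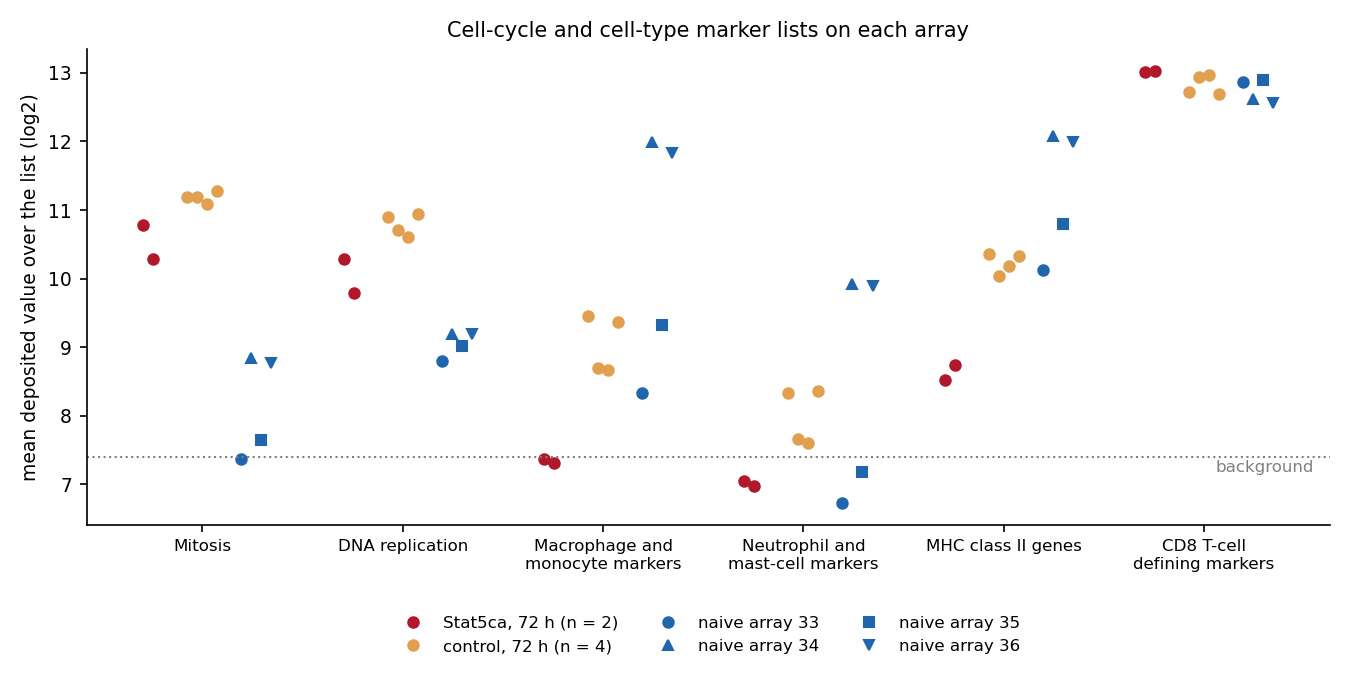
Mean log2 signal of 6 gene lists on each array, with Stat5ca arrays to the left, then control and naive arrays, and 1 point per array. Naive arrays 34 and 36 have means of 11.99 and 11.82 for the macrophage and monocyte genes, above the Stat5ca arrays at 7.37 and 7.31, while the CD8 list lies between 12.56 and 13.03 on these arrays.

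Against naive cells, 5699 of 19938 genes (28.6%) were called in the Stat5ca cells. Of all genes, 3530 (17.7%) rose and 2169 (10.9%) fell, and the median over all genes was -0.03. A change of at least 2-fold was met by 1225 genes (6.14%), 809 that rose (4.06%) and 416 that fell (2.09%). With or without a call, 23.3% of genes were higher and 21.3% lower on both Stat5ca arrays than on every naive array. The count rests on few arrays, since leaving out Stat5ca array 9 reduced it to 3273 and leaving out array 10 to 3283. These shares are the level against which the counts in the gene lists below are read. They do not apply to list counts given with a Stat5ca array left out. Over all genes, both rises and falls were fewer in those fits, against naive and against control cells. A lower list count there does not by itself set the list apart from all genes. Of 430 listed or named genes called against naive cells, 273 kept their call when either Stat5ca array was left out. For calls against control cells only 22 of 142 did. Among the genes described below these were Ccr8, Egr2, Egr3, Fam183b, Foxp3, Gpnmb, Gzmc, H2-Aa, H2-Ea, Il18r1, Jun, Klf2, Klf3, Lrrc32, Ly6i, Lyz2, Psat1, Ptgs2, S1pr1, Slc7a11, Stat5a and Thbs1, and every other call against control cells below was lost when Stat5ca array 9, array 10 or either of them was left out.

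Among the 12 largest rises, counted from the background where a group lay under it, were granzyme B, the interleukin-2 receptor alpha chain, aldolase C, the interleukin-12 receptor beta 2 chain, the checkpoint receptor Ctla4 and genes of mitosis. Gzmb, the serine protease that cytotoxic granules deliver into target cells, read 13.25 and 13.17 on the Stat5ca arrays, 12.73, 13.40, 13.31 and 12.79 on the control arrays and 6.86, 8.75, 8.13 and 8.37 on the naive arrays. The difference from naive cells was 5.18 ± 0.35 (adjusted p = 2.40e-07), a 36.2-fold rise, and no naive array came near a Stat5ca array. Aldoc, an aldolase of the glycolytic chain, had signals of 12.71 and 12.67 in Stat5ca cells, 11.09, 12.99, 12.996 and 11.14 in control cells and 7.94, 7.91, 7.53 and 8.07 in naive cells. It rose by 4.83 ± 0.44 (adjusted p = 2.67e-06), with control arrays 2 and 3 above and arrays 1 and 4 below the Stat5ca arrays. Il12rb2, the signalling chain of the interleukin-12 receptor, stood at 12.81 and 13.02 in Stat5ca cells, against 7.92, 8.72, 8.99 and 8.58 in naive cells, a rise of 4.36 ± 0.26 (adjusted p = 1.27e-07). Prr11 (3.64), a gene of the dividing cell, and Bst1 (3.51), a surface enzyme of the ADP-ribosyl cyclase family, were other members of this group. Without naive arrays 34 and 36 they rose by 4.47 and 4.37.

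**Figure D2:**
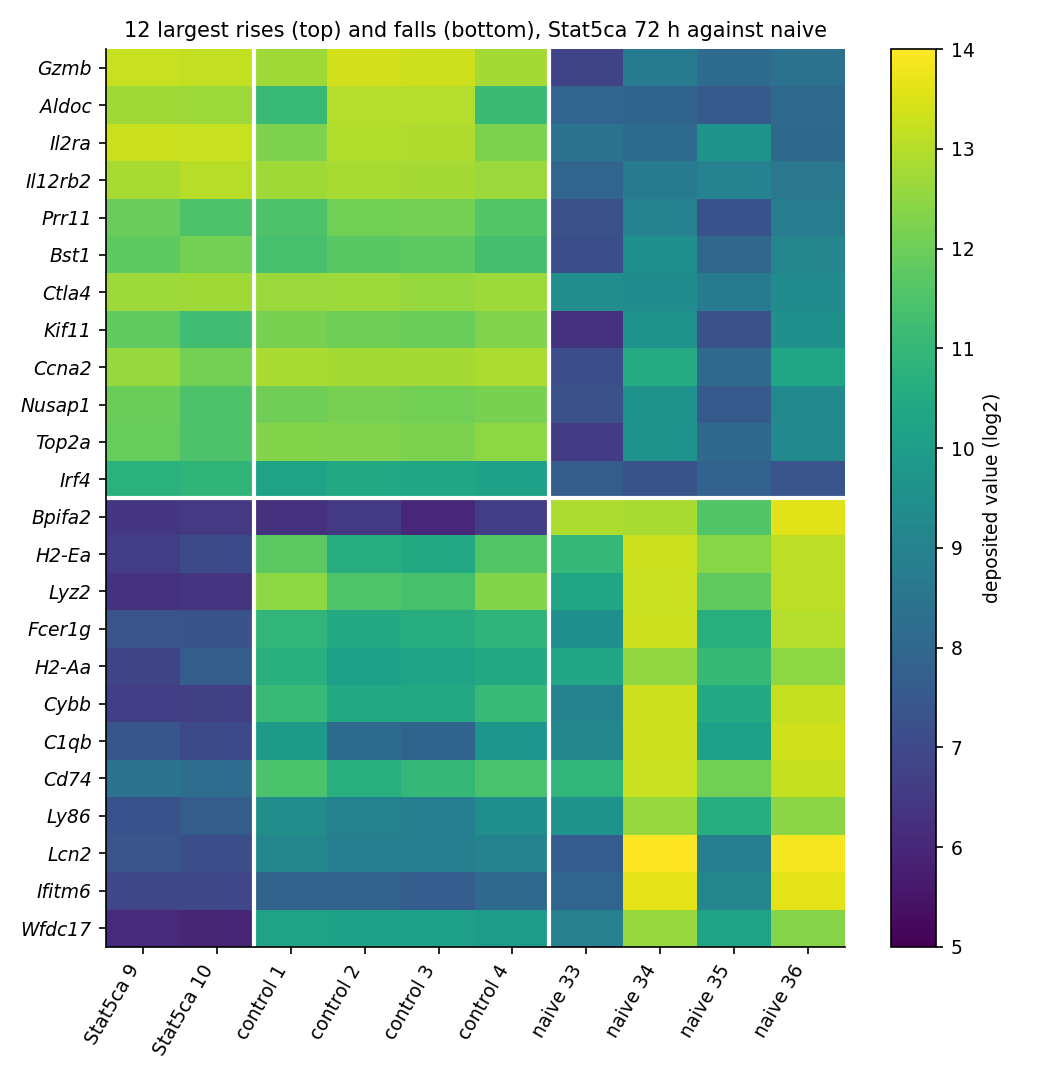
Heat map of the log2 signal (colour, 5 to 14) of the 12 genes with the largest rises, above, and the 12 with the largest falls, below, on the Stat5ca, control and naive arrays from left to right. Gzmb is bright on Stat5ca arrays (13.25 and 13.17) and dim on naive arrays (6.86, 8.75, 8.13 and 8.37), and most of the falling genes are brightest on naive arrays 34 and 36.

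The label of the Stat5ca arrays was checked against Stat5a and Stat5b. Stat5a read 12.002 and 12.12 in Stat5ca cells, 10.59, 10.57, 10.57 and 10.50 in control cells and 10.43, 10.21, 10.62 and 10.29 in naive cells. The Stat5ca arrays lay above all others, by 1.68 ± 0.13 over naive cells (adjusted p = 5.14e-07, 3.2-fold) and by 1.505 ± 0.13 over control cells (adjusted p = 1.31e-05). The arrays do not separate the endogenous transcript from an introduced one. Stat5b, its close relative, rose by 0.64 ± 0.12 over naive cells (adjusted p = 8.61e-04), at 11.25 and 11.55 in Stat5ca cells, 11.21, 11.41, 11.37 and 11.22 in control cells and 10.89, 10.68, 10.89 and 10.59 in naive cells. Its difference from control cells was 0.10 ± 0.12 and was not called. With the macrophage mean as a covariate the rise of Stat5b over naive cells lost its call (adjusted p = 0.0691). Of the 6 STAT genes measured, 4 rose and none fell. The other risers were Stat4 (0.76), which signals from the interleukin-12 receptor, and Stat2 (0.45), which signals from the type I interferon receptor. Stat3 (0.27) and Stat6 (-0.01) were not called. Calls against naive cells were lost without 1 of the Stat5ca arrays for Stat2 (adjusted p = 0.134), without naive arrays 34 and 36 for Stat2 (adjusted p = 0.1) and with the macrophage covariate for Stat4 and Stat2 (adjusted p between 0.058 and 0.354).

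Of 26 measured genes known as targets of interleukin-2 and STAT5, 12 rose and 1 fell, with a median of 0.43, against 17.7% rising and a median of -0.03 over all genes. Against control cells, where 2.37% of all genes rose and 3.35% fell, 4 of these 26 rose and 1 fell (1 rose without Stat5ca array 9, none without array 10). The letters TTCNNNGAA, the core that STAT5 dimers bind, were searched in the 300 bases around each gene's start (250 before, 50 after). They read the same on both strands. They occurred in 9.55% of 27025 mouse genes, in 3 of the 9 targets that rose and had a promoter in the RefSeq table, and in 6 of the 20 measured targets that had one. The promoters of Cish and Gzmb are shown because both genes rose and both hold the letters close to the start, at 0 and 11 bases from it in Cish and 37 bases after it in Gzmb. They are from RefSeq, build GRCm38.p6, with the searched letters in capitals, and no binding was measured here.
Cish promoter, chr9:107296409-107296708, plus strand: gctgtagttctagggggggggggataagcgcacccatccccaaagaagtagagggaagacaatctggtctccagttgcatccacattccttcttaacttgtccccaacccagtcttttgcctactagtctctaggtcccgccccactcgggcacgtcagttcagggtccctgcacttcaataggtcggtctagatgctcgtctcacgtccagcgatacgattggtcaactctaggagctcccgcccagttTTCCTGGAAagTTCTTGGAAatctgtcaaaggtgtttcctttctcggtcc
Gzmb promoter, chr14:56262285-56262584, minus strand: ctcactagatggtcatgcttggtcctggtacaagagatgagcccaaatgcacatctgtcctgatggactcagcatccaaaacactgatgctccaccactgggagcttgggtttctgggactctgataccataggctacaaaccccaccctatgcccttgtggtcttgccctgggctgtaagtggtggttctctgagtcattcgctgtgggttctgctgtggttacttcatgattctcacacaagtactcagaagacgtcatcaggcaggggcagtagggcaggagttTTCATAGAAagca

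Both chains of the interleukin-2 receptor in this list rose over naive cells. Il2ra, the chain that gives the interleukin-2 receptor its high affinity, read 13.30 and 13.24 in Stat5ca cells, 12.25, 12.98, 12.93 and 12.23 in control cells and 8.41, 8.13, 9.65 and 8.04 in naive cells. It rose by 4.71 ± 0.35 over naive cells (adjusted p = 5.14e-07, 26.2-fold), with array 35 the highest naive array. Both Stat5ca arrays were above all control arrays, but the difference of 0.67 ± 0.35 was not called (adjusted p = 0.316). Il2rb, the signalling chain shared with interleukin-15, stood at 12.73 and 12.60 in Stat5ca cells, 13.08, 12.97, 12.97 and 13.09 in control cells and 11.05, 11.22, 11.33 and 11.32 in naive cells. It rose by 1.44 ± 0.09 over naive cells and was -0.36 ± 0.09 relative to control cells, where it fell (adjusted p = 0.0254).

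The inhibitors that STAT5 induces split by comparison. Cish, which encodes CIS, read 10.36 and 9.86 in Stat5ca cells, 9.37, 9.75, 9.78 and 9.54 in control cells and 8.43, 8.02, 8.89 and 8.68 in naive cells, a rise of 1.60 ± 0.19 over naive cells (adjusted p = 2.90e-05). Its difference of 0.499 ± 0.19 from control cells was not called (adjusted p = 0.16). Socs1, an inhibitor of Janus kinases, read 10.84 and 11.26 in Stat5ca cells, 10.29, 10.35, 10.33 and 10.27 in control cells and 9.94, 9.40, 10.33 and 9.47 in naive cells. It rose by 1.26 ± 0.20 over naive cells and by 0.74 ± 0.20 over control cells, the second at an adjusted p of 0.042, close to the threshold. Socs2, which acts on STAT5 signals of the growth hormone receptor, had signals of 10.45 and 10.21 in Stat5ca cells, 8.99, 9.64, 9.47 and 9.13 in control cells and 8.33, 8.88, 10.40 and 8.55 in naive cells. Naive array 35 reached the level of the Stat5ca arrays, and the rise of 1.30 ± 0.39 (adjusted p = 0.0221) fell short of the threshold without naive arrays 34 and 36 (0.97, adjusted p = 0.115). Socs3, the inhibitor best known from interleukin-6 signals, was not called against naive cells: 10.66 and 11.05 in Stat5ca cells, 8.77, 9.84, 9.98 and 8.76 in control cells and 11.57, 10.78, 11.01 and 10.92 in naive cells. It rose over control cells, by 1.52 ± 0.34 (adjusted p = 0.0167). Among these, calls against naive cells ended without 1 of the Stat5ca arrays for Socs2 (adjusted p between 0.0828 and 0.15) and with the macrophage covariate for Socs2 (adjusted p = 0.232).

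Kinases and growth genes downstream of the receptor rose too. Pim1, a survival kinase, read 12.37 and 12.04 in Stat5ca cells, 10.50, 11.10, 11.18 and 10.56 in control cells and 10.80, 11.33, 10.73 and 11.63 in naive cells, above all other arrays, by 1.09 ± 0.25 over naive and 1.37 ± 0.25 over control cells. Its relative Pim2 rose by 1.24 ± 0.17 over naive cells, and its 0.58 ± 0.17 over control cells was not called. Myc, the transcription factor of cell growth, read 12.75 and 12.75 in Stat5ca cells, 11.74, 12.13, 12.33 and 11.67 in control cells and 12.01, 11.78, 11.79 and 11.67 in naive cells. The rise of Myc was 0.94 ± 0.16 over naive cells (adjusted p = 4.30e-04) and 0.78 ± 0.16 over control cells (adjusted p = 0.0106). Tnfrsf4, the co-stimulatory receptor OX40 (1.70), the phosphatase Dusp5 (0.57) and the repressor Bcl6 (0.79) rose over naive cells. The list of targets gives no direction for its members, so a rise was counted whichever way STAT5 is known to move the gene. The survival genes Bcl2 (0.23), Mcl1 (-0.15) and Bcl2l1 (0.57), the cyclin Ccnd2 (-0.12) and the cytokine Osm (0.29) were not called. In this group, calls against naive cells were lost without 1 of the Stat5ca arrays for Pim1 and Dusp5 (adjusted p between 0.0703 and 0.306), without naive arrays 34 and 36 for Dusp5 (adjusted p = 0.102) and with the macrophage covariate for Dusp5 (adjusted p = 0.239).

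**Figure D3:**
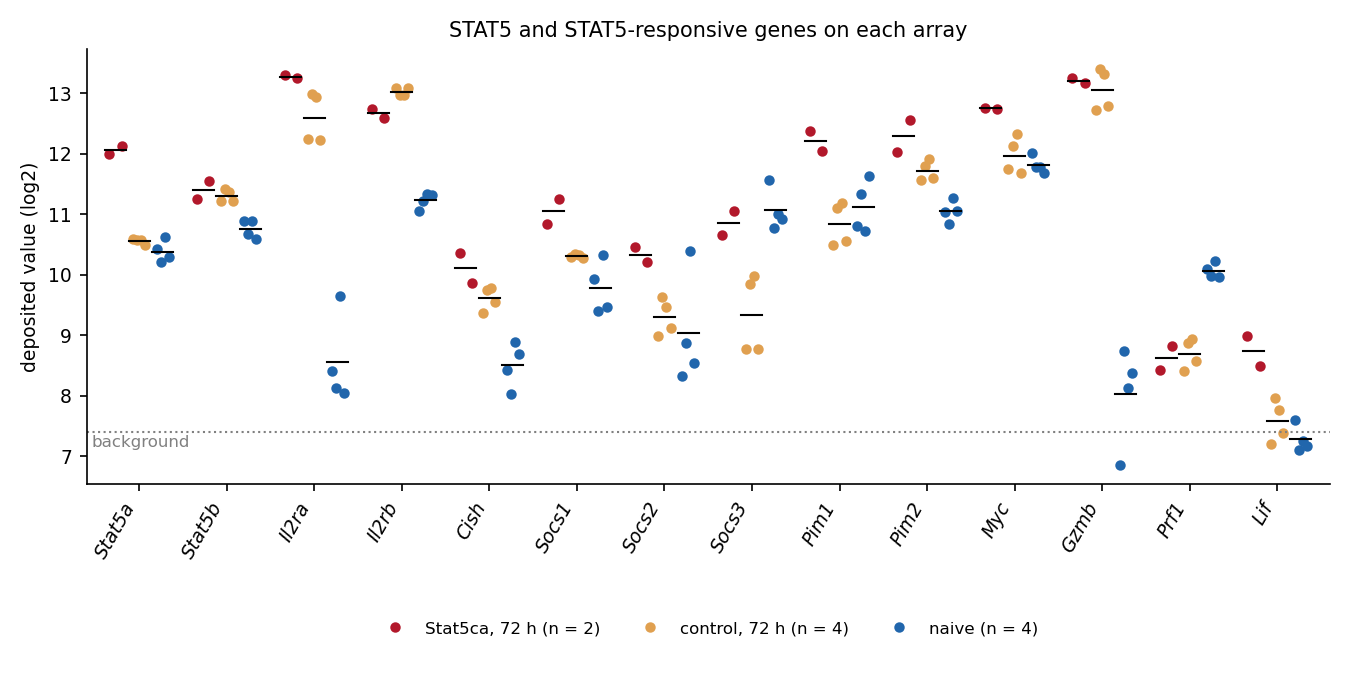
Log2 signal of 14 genes of the STAT5 pathway and of effector function on each array: Stat5ca (red), control (orange) and naive (blue), with 1 point per array, black lines for group means and a dotted line at the background of 7.40. Stat5a is higher on the Stat5ca arrays (12.002 and 12.12) than on any control or naive array, whereas Gzmb and Il2ra are high on Stat5ca and control arrays alike.

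Of 22 measured genes of cytotoxic killing, 4 rose and 2 fell against naive cells, near the 17.7% and 10.9% of all genes. Under the background in both groups lay 5 of them. The rises were Gzmb, Fasl (1.69 ± 0.31), the ligand of the death receptor Fas, and the lysosomal protease Ctsw (0.81) and the granule-docking GTPase Rab27a (0.73). Without naive arrays 34 and 36, 7 rose and 1 fell. Prf1, which encodes the pore former perforin, moved the other way from Gzmb. It read 8.43 and 8.82 in Stat5ca cells, 8.40, 8.88, 8.93 and 8.57 in control cells and 10.10, 9.98, 10.23 and 9.96 in naive cells, all naive arrays above all Stat5ca arrays, a change of -1.44 ± 0.16 (adjusted p = 1.30e-05). Ctsc, the protease that activates granzymes, fell as well (-1.13), but it is also a myeloid gene and its sign turned with the macrophage mean as a covariate (0.25). Other granzymes did not follow Gzmb. Gzma read 8.73 and 8.12 in Stat5ca cells, 10.13, 10.41, 10.28 and 10.33 in control cells and 8.18, 10.17, 9.88 and 9.91 in naive cells, not called against naive cells (-1.11) and lower than in control cells (-1.86 ± 0.41). Gzmc read 6.98 and 6.26 in Stat5ca cells, at the background, 9.36, 9.22, 8.36 and 9.72 in control cells and 6.05, 6.21, 6.72 and 6.06 in naive cells, so that the Stat5ca cells stood with the naive cells and apart from control cells (-2.54 ± 0.33, adjusted p = 6.82e-04). The calls against naive cells ended without 1 of the Stat5ca arrays for Ctsc (adjusted p between 0.083 and 0.213) and without naive arrays 34 and 36 for Ctsc (adjusted p = 0.201).

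Transcription factors of effector differentiation rose in 9 of 19 measured cases and fell in 2, with a median of 0.58. Irf4, which scales with the strength of receptor signalling, read 10.75 and 10.88 in Stat5ca cells, 10.17, 10.52, 10.32 and 10.16 in control cells and 7.67, 7.32, 7.82 and 7.36 in naive cells, a rise of 3.27 ± 0.26 (adjusted p = 7.86e-07). Tbx21, which encodes T-bet, the factor that drives type 1 effector genes, read 10.93 and 10.72 in Stat5ca cells, 11.04, 11.19, 11.19 and 10.999 in control cells and 8.10, 8.63, 8.63 and 8.81 in naive cells, a rise of 2.28 ± 0.15 (adjusted p = 2.11e-07). Its relative Eomes, known for memory cells, read 9.21 and 8.99 in Stat5ca cells, 11.41, 9.77, 9.57 and 11.46 in control cells and 8.34, 8.84, 8.98 and 8.63 in naive cells. It was not called against naive cells (0.40 ± 0.44, adjusted p = 0.531) or control cells (-1.45 ± 0.44). Hif1a (1.79 ± 0.12), the oxygen-sensing factor, Bhlhe40 (2.21 ± 0.45), Prdm1 (1.43), which encodes Blimp-1, Runx3 (1.12), Rora (0.72), Batf (0.58) and Ikzf3 (0.39) rose. Klf6 (-0.88) and Zeb2 (-1.68) fell, and only Klf6 did so without naive arrays 34 and 36. Zeb2 is also a gene of macrophages, whose list mean moved with the naive arrays as given above. Here calls against naive cells were lost without 1 of the Stat5ca arrays for Bhlhe40, Prdm1, Ikzf3 and Zeb2 (adjusted p between 0.0545 and 0.187), without naive arrays 34 and 36 for Zeb2 (adjusted p = 0.283) and with the macrophage covariate for Batf, Ikzf3 and Zeb2 (adjusted p between 0.105 and 0.357).

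The interleukin-12, interleukin-18 and interferon receptor list had 5 rises and 1 fall among 9 genes, with a median of 0.66. Beside Il12rb2 these were its partner Il12rb1 (0.77), the interferon receptor chains Ifnar1 (0.83), Ifnar2 (0.66) and Ifngr1 (0.82). Il27ra, a receptor chain for interleukin-27, fell (-1.15). Il18r1 was not called against naive cells (-0.15) and rose over control cells (0.79 ± 0.10). Calls against naive cells were lost without 1 of the Stat5ca arrays for Il12rb1 (adjusted p between 0.0811 and 0.218), without naive arrays 34 and 36 for Il12rb1 (adjusted p = 0.171) and with the macrophage covariate for Il12rb1 (adjusted p = 0.774).

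Genes of naive and central-memory T cells fell in 9 of 20 measured cases and rose in 1, against 10.9% of all genes falling. The same 20 genes rose in 6 cases and fell in none relative to control cells, where 2.37% of all genes rose (4 rises without Stat5ca array 9, 3 without array 10). The comparisons share the Stat5ca arrays, so the values of each group are given side by side. Klf2, the factor that keeps naive T cells quiescent and able to recirculate, read 10.55 and 10.58 in Stat5ca cells, 9.45, 8.75, 8.58 and 9.44 in control cells and 11.88, 11.46, 11.56 and 11.64 in naive cells. Stat5ca cells lay between the other groups with no overlap on either side, -1.07 ± 0.22 from naive cells (adjusted p = 0.00172) and 1.51 ± 0.22 from control cells (adjusted p = 0.00149). Klf3 (-0.496 from naive, 1.51 from control cells) and S1pr1 (-0.75 and 1.02), the receptor that lets lymphocytes leave lymph nodes, also lay in between. Among these, calls against naive cells ended without 1 of the Stat5ca arrays for Klf3 (adjusted p = 0.089).

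Ccr9, the receptor for homing to the gut and thymus, read 9.07 and 8.85 in Stat5ca cells, 7.57, 6.03, 6.54 and 7.61 in control cells and 12.52, 11.93, 12.64 and 11.83 in naive cells. It fell by 3.27 relative to naive cells (adjusted p = 3.06e-05) and was 2.02 ± 0.40 relative to control cells (adjusted p = 0.00959), a call lost with either Stat5ca array left out (adjusted p = 0.0852 without array 9 and 0.114 without array 10). Some members were not called against naive cells. Lef1, a factor of naive and stem-like T cells, read 12.39 and 12.51 in Stat5ca cells, 11.53, 11.76, 11.86 and 11.49 in control cells and 12.58, 12.23, 12.61 and 12.32 in naive cells. Its 0.02 from naive cells was not called, and it rose by 0.79 ± 0.13 over control cells. Il7r, the interleukin-7 receptor chain, read 12.55 and 12.56 in Stat5ca cells, 11.62, 12.34, 12.31 and 11.68 in control cells and 12.57, 12.48, 12.52 and 12.40 in naive cells, a difference of 0.07 from naive cells that was not called. Il6ra, the interleukin-6 receptor, was low in both effector groups, with 8.53 and 8.97 in Stat5ca cells, 8.11, 8.45, 8.37 and 8.09 in control cells and 11.72, 11.66, 11.62 and 11.63 in naive cells. Its change from naive cells was -2.91 ± 0.18 (adjusted p = 1.29e-07), and the 0.49 from control cells was not called. Cd55 (-0.88), Tgfbr2 (-0.59), Actn1 (-0.51) and Il6st (-0.501) fell less, and Id3, an inhibitor of E proteins, rose (1.59 ± 0.17). In the quiescence list, 6 of 21 rose and 2 fell (2 and 3 without naive arrays 34 and 36, and 2 or 3 rises without 1 Stat5ca array), Btg1 (0.03) and Txnip (0.30) were not called against naive cells and rose over control cells (0.51 and 0.81). In this group, calls against naive cells were lost without 1 of the Stat5ca arrays for Actn1 and Il6st (adjusted p between 0.0844 and 0.219), without naive arrays 34 and 36 for Actn1 (adjusted p = 0.0793) and with the macrophage covariate for Cd55 and Actn1 (adjusted p between 0.0672 and 0.274).

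**Figure D4:**
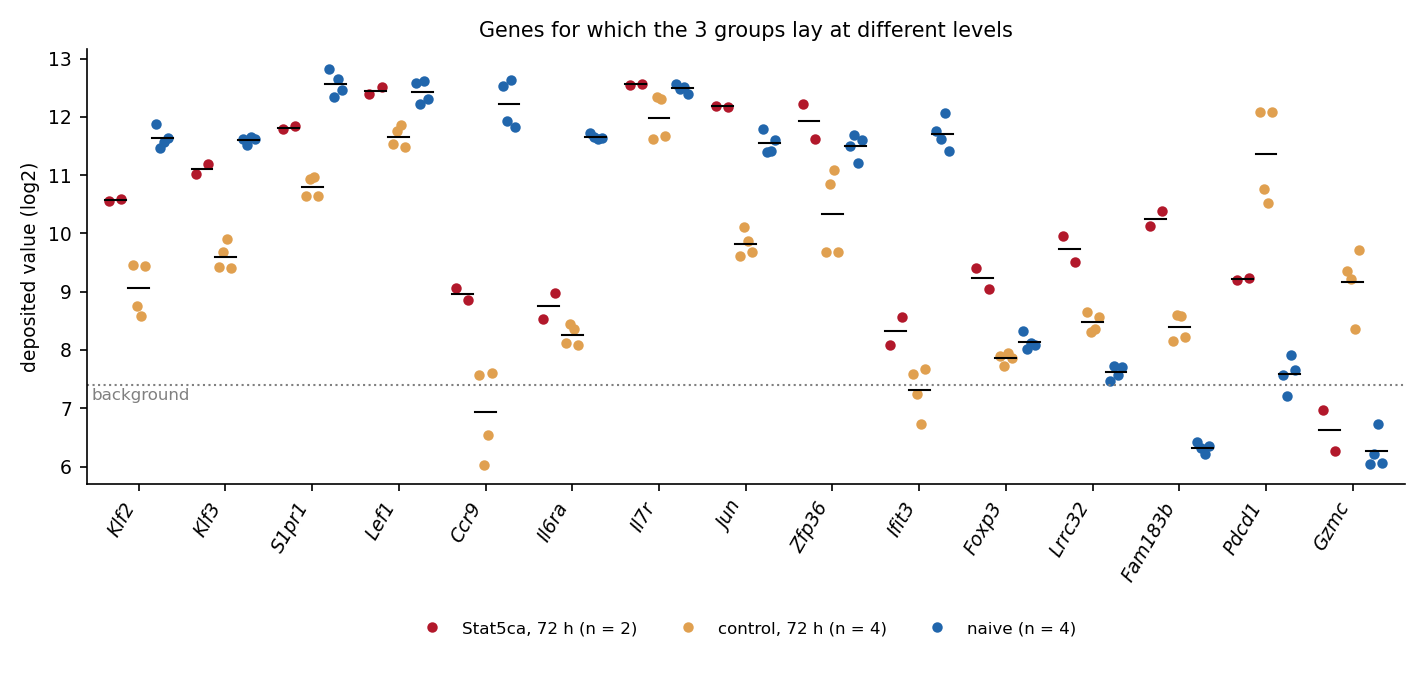
Log2 signal of 15 genes on each Stat5ca (red), control (orange) and naive (blue) array, with black lines for group means. Klf2 lies at 10.55 and 10.58 on the Stat5ca arrays, between the control arrays and the naive arrays, Foxp3 and Fam183b are highest on the Stat5ca arrays, and Gzmc is low on Stat5ca and naive arrays.

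Chemokine and egress receptors fell in 8 of 17 cases and rose in 3, with a median of -0.74. The falls numbered 5 without Stat5ca array 9 and 4 without array 10. Cxcr3, the receptor of type 1 effector cells, read 11.52 and 10.81 in Stat5ca cells, 11.71, 11.22, 11.21 and 11.65 in control cells and 8.996, 9.41, 9.25 and 9.34 in naive cells, a rise of 1.92 ± 0.19. Ccr4 (1.90 ± 0.25) and Cxcr5 (1.96 ± 0.39), receptors known from helper T cells, rose as well. Among the falls, Ccr2 (-2.24), Ccr3 (-2.85) and Xcr1 (-1.95) are also receptors of myeloid and dendritic cells. The call of Ccr3 was lost without naive arrays 34 and 36 (-1.004, adjusted p = 0.0951). Cxcr6 (-1.15), a receptor of effector and resident T cells, fell relative to naive cells and to control cells (-1.58). Ccr8 was not called against naive cells (-0.13) and fell relative to control cells (-1.79). The calls against naive cells ended without 1 of the Stat5ca arrays for Ccr3, Xcr1 and Cxcr6 (adjusted p between 0.0946 and 0.328) and with the macrophage covariate for Cxcr5, Ccr3, Xcr1 and Cxcr6 (adjusted p between 0.0581 and 0.889).

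Of 28 chemokine and cytokine genes 3 rose and 4 fell, against 17.7% and 10.9% of all genes, and 9 were under the background in both groups. The falls numbered 2 without Stat5ca array 9 and 1 without array 10. Lif, a cytokine of the interleukin-6 family, read 8.99 and 8.49 in Stat5ca cells, 7.195, 7.97, 7.77 and 7.39 in control cells and 7.60, 7.10, 7.26 and 7.16 in naive cells. The rise was 1.46 ± 0.22 over naive cells and 1.16 ± 0.22 over control cells, where the call was lost without Stat5ca array 9 (adjusted p = 0.117). Ifng, the type 1 effector cytokine, differed between the Stat5ca arrays, at 10.42 and 8.84 in Stat5ca cells, 8.45, 8.72, 8.88 and 8.26 in control cells and 7.92, 8.38, 8.57 and 8.47 in naive cells. Its rise of 1.30 ± 0.31 (adjusted p = 0.00533) was not called without array 9 (0.51, adjusted p = 0.169). Tnfsf8, the ligand of CD30, rose over naive (0.62) and control cells (0.66). Ccl5 (-1.11), a chemokine of memory T cells, Ccl22 (-2.40), Ccl9 (-1.41) and Il4 (-0.24) fell, while Tnf (0.36) was not called. Xcl1, a chemokine of activated CD8 T cells, was not called against naive cells (0.58) and fell relative to control cells (-2.15). Here calls against naive cells were lost without 1 of the Stat5ca arrays for Tnfsf8, Ccl5, Ccl9 and Il4 (adjusted p between 0.0726 and 0.205), without naive arrays 34 and 36 for Ccl9 and Il4 (adjusted p = 0.141 for both) and with the macrophage covariate for Tnfsf8, Ccl5, Ccl9 and Il4 (adjusted p between 0.147 and 0.798).

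Co-stimulatory receptors rose in 10 of 17 cases and fell in 1, with a median of 0.64. Tnfrsf9, the receptor 4-1BB, read 11.96 and 11.70 in Stat5ca cells, 12.56, 12.49, 12.48 and 12.61 in control cells and 9.30, 8.91, 9.41 and 9.22 in naive cells, a rise of 2.62 ± 0.14 over naive cells (adjusted p = 4.15e-08). Against control cells it fell (-0.71 ± 0.14), a call lost without Stat5ca array 10 (adjusted p = 0.189). Icos (1.77), Tnfrsf18 (1.64), Slamf7 (1.38), Cd28 (1.35), Slamf1 (1.24) and Cd27 (0.73) rose over naive cells, and Tnfrsf25 (-0.91) fell. Cd69, an early activation marker that holds cells in tissue, was not called against naive cells (-0.12) and rose over control cells (0.90). Calls against naive cells were lost without 1 of the Stat5ca arrays for Slamf7 (adjusted p between 0.0568 and 0.0828) and with the macrophage covariate for Cd27 (adjusted p = 0.389).

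Inhibitory receptors rose in 5 of 15 cases and fell in 3 (2 falls without Stat5ca array 9, 1 without array 10). Ctla4, which competes with CD28 for its ligands, read 12.67 and 12.73 in Stat5ca cells, 12.64, 12.68, 12.57 and 12.68 in control cells and 9.45, 9.39, 8.72 and 9.35 in naive cells, a rise of 3.47 ± 0.29 (adjusted p = 1.16e-06). Lag3, which binds MHC class II, stood at 11.12 and 11.26 in Stat5ca cells, 10.73, 11.29, 11.42 and 10.64 in control cells and 7.77, 8.28, 7.66 and 8.14 in naive cells, a rise of 3.23 ± 0.23. Neither was called against control cells (0.06 for Ctla4 and 0.17 for Lag3). Pdcd1, which encodes PD-1, read 9.20 and 9.24 in Stat5ca cells, 12.08, 10.76, 10.53 and 12.09 in control cells and 7.58, 7.21, 7.92 and 7.65 in naive cells. Pdcd1 rose by 1.63 ± 0.36 over naive cells (adjusted p = 0.00306) and was lower than in control cells by a difference of -2.14 ± 0.36 (adjusted p = 0.00342). That second call was lost without Stat5ca array 10, and control arrays 1 and 4 lay above arrays 2 and 3. The same pairs of control arrays lay close together, and apart from each other, for other genes given here, among them Eomes, Ikzf2 and Socs3. As given above, arrays 1 and 4 carried the Y-linked gene and arrays 2 and 3 Xist. The part of sex in these differences was not tested beyond the fit with the Y-linked level. The main fit treats all control arrays as independent, and the labels do not say whether they are. Tigit (3.14 ± 0.29) and Cd200 (1.90) rose over naive cells, and Btla (-0.56), Klrg1 (-1.25), a marker of short-lived effectors, and Cd244a (-1.86) fell. Cd160 was not called against naive cells (0.13) and fell relative to control cells (-1.31). Among these, calls against naive cells ended without 1 of the Stat5ca arrays for Klrg1 and Cd244a (adjusted p between 0.069 and 0.206), without naive arrays 34 and 36 for Klrg1 (adjusted p = 0.146) and with the macrophage covariate for Klrg1 and Cd244a (adjusted p between 0.336 and 0.604).

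Killer lectin-like receptors, which natural killer cells and effector CD8 T cells share, rose in 2 of 15 cases and fell in 6, and 8 were under the background in both groups. Klrk1, which encodes NKG2D, read 10.47 and 10.97 in Stat5ca cells, 11.15, 11.18, 11.02 and 11.31 in control cells and 7.05, 8.88, 8.03 and 8.34 in naive cells, a rise of 2.64 ± 0.33. Klrd1, which encodes CD94, rose by 1.29 ± 0.17. Klrc1, an NKG2 chain that pairs with CD94, fell (-2.04, of which only -0.56 lay above the background) and fell relative to control cells too (-2.26). The falls in this list numbered 2 when naive arrays 34 and 36 were left out, and 11 when arrays 33 and 35 were left out instead. They were 2 without Stat5ca array 9 and 3 without array 10. In this group, calls against naive cells were lost with the macrophage covariate for Klrc1 (adjusted p = 0.0692).

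Genes best known from regulatory and helper T cells rose in 10 of 14 cases and fell in 2, with a median of 1.13, against 17.7% and -0.03 over all genes. Foxp3, the defining factor of regulatory T cells and a known STAT5 target there, read 9.41 and 9.05 in Stat5ca cells, 7.90, 7.72, 7.96 and 7.85 in control cells and 8.32, 8.02, 8.11 and 8.09 in naive cells. Both Stat5ca arrays lay above all control and naive arrays, by 1.09 ± 0.11 over naive cells (adjusted p = 5.76e-06) and 1.37 ± 0.11 over control cells (adjusted p = 1.03e-05). Lrrc32, which encodes GARP, the surface anchor of latent TGF-beta, was also highest on the Stat5ca arrays, with 9.96 and 9.51 in Stat5ca cells, 8.65, 8.32, 8.37 and 8.57 in control cells and 7.47, 7.72, 7.57 and 7.70 in naive cells. It rose by 2.12 ± 0.14 over naive and 1.26 ± 0.14 over control cells. Ikzf2, which encodes Helios, was not called against control cells (-0.06): it read 11.54 and 11.55 in Stat5ca cells, 12.24, 10.99, 10.92 and 12.27 in control cells and 8.26, 8.32, 9.10 and 8.27 in naive cells, a rise of 3.06 ± 0.34 over naive cells. Ikzf4, which encodes Eos, rose over both groups (1.45 ± 0.14 over naive, 0.71 ± 0.14 over control cells). Capg (1.61), the cytokine subunit Ebi3 (1.28), Izumo1r (1.26), Nrp1 (1.16) and Gata3 (0.92), the factor of type 2 helper cells, rose over naive cells. Maf (-1.61) and the receptor Gpr83 (-0.61) fell. The calls against naive cells ended without 1 of the Stat5ca arrays for Ebi3, Nrp1 and Gata3 (adjusted p between 0.0633 and 0.368), without naive arrays 34 and 36 for Gata3 (adjusted p = 0.0812) and with the macrophage covariate for Gata3 and Maf (adjusted p between 0.491 and 0.499).

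Genes of the interferon response divided by family. Of 25 measured interferon-stimulated genes of the antiviral kind, none rose and 13 fell relative to naive cells, with a median of -1.04, and 11 of the falls were at least 2-fold. Without naive arrays 34 and 36, 18 fell. Of 7 interferon-inducible GTPases, which attack vacuoles of intracellular microbes, 4 rose and 1 fell, with a median of 0.997, and without Stat5ca array 10 the rises numbered 2. Both families are known to be induced through the interferon-stimulated response element, searched here as the letters GAAA, any 2 bases and GAAA again, on both strands of the same 300-base windows. They occurred in 3.99% of all 27025 genes, in 5 of the 9 antiviral genes that fell and had a promoter in the table, and in all 3 GTPases that rose and had one. Over all measured members with a promoter, called or not, they occurred in 8 of 17 antiviral genes and in 4 of 4 GTPases. Promoters of Ifit1, Ifit3 and Irgm1 are shown because Ifit1 and Ifit3 fell and Irgm1 rose, although all 3 hold the letters before the start (at -104 and -85, at -156 and -122, and at -30 and -24, the last pair overlapping). The capitals mark the matches, and a match is a feature of the sequence and no measured binding.
Ifit1 promoter, chr19:34640639-34640938, plus strand: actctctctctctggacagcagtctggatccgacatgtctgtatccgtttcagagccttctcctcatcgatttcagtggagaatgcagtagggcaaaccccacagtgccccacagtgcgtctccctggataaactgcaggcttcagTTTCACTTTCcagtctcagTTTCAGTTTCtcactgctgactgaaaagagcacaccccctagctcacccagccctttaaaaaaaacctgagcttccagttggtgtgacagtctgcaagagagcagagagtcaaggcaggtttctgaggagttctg
Ifit3 promoter, chr19:34583279-34583578, plus strand: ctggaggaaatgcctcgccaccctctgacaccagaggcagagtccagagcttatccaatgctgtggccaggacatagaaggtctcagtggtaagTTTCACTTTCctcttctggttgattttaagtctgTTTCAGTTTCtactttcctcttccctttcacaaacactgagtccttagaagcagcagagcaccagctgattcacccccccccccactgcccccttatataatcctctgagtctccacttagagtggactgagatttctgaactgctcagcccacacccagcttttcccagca
Irgm1 promoter, chr11:48871371-48871670, minus strand: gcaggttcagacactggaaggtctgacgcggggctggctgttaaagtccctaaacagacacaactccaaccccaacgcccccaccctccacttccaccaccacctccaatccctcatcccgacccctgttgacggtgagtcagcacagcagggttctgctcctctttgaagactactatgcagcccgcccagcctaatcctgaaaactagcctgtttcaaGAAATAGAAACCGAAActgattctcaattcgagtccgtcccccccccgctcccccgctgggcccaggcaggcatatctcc

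Ifit3, which blocks the translation of viral RNA with its partners, read 8.09 and 8.57 in Stat5ca cells, 7.59, 7.24, 6.73 and 7.68 in control cells and 11.75, 11.62, 12.06 and 11.41 in naive cells. The change from naive cells was -3.38 ± 0.26 (adjusted p = 5.69e-07), and the 1.02 ± 0.26 over control cells was called at an adjusted p of 0.0308 but not without Stat5ca array 10 (0.78, adjusted p = 0.371). Oasl2, a member of the oligoadenylate synthetase family, had 7.79 and 7.43 in Stat5ca cells, 8.81, 8.29, 8.06 and 8.74 in control cells and 11.11, 10.99, 11.64 and 10.93 in naive cells, near the background on the Stat5ca arrays (-3.56 ± 0.29, adjusted p = 9.44e-07). Oas2 (-3.47 ± 0.25), which senses double-stranded RNA, Ifit1 (-2.46 ± 0.26), Rtp4 (-2.29), Mx1 (-2.07) and Irf7 (-1.60), the factor that amplifies type I interferon, fell as well. Naive array 35 was the highest array for Ifit3, Oasl2, Oas2 and Ifit1. Irf9 (0.00 from naive, 0.58 from control cells) and the nucleic acid sensor Zbp1 (0.01 and 0.67) were not called against naive cells and rose over control cells. Among the GTPases, Irgm1 read 11.86 and 12.26 in Stat5ca cells, 11.36, 11.08, 10.89 and 11.42 in control cells and 11.02, 10.86, 11.67 and 10.58 in naive cells. It rose by 1.02 ± 0.23 over naive (adjusted p = 0.0042) and 0.87 ± 0.23 over control cells (adjusted p = 0.0416). Iigp1 (1.47 ± 0.37), Gbp5 (1.35) and Gbp3 (0.997) rose, with the call of Iigp1 lost without Stat5ca array 10 (adjusted p = 0.129), and Gbp9 (-0.66) fell. Here calls against naive cells were lost without 1 of the Stat5ca arrays for Rtp4, Irgm1 and Gbp9 (adjusted p between 0.0798 and 0.288) and with the macrophage covariate for Rtp4, Irgm1 and Iigp1 (adjusted p between 0.0513 and 0.125).

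Activation under Stat5ca came with a broad rise of cell-cycle genes. All 42 measured genes of mitosis rose over naive cells, 39 of them at least 2-fold, with a median of 2.48, a lowest value of 0.62 (Smc4) and a highest of 3.39 (Tpx2, whose naive mean lay under the background). Of 36 genes of DNA replication, 33 rose and none fell, with a median of 0.89. The mean of the mitosis list was 10.78 and 10.29 on the Stat5ca arrays, 11.20, 11.19, 11.09 and 11.28 on the control arrays and 7.37, 8.84, 7.64 and 8.77 on the naive arrays. Naive arrays 34 and 36 thus lay above naive arrays 33 and 35, as they did for myeloid genes, and all 42 genes still rose without them. Tpx2, a spindle assembly factor, read 10.75 and 10.33 in Stat5ca cells, 11.02, 11.12, 11.04 and 11.06 in control cells and 5.85, 8.15, 6.56 and 8.06 in naive cells, a rise of 3.39 ± 0.46, of which 3.14 lay above the background. Ccna2, the cyclin of S and G2 phase, had 12.62 and 12.11 in Stat5ca cells, 12.86, 12.78, 12.78 and 12.88 in control cells and 7.13, 10.54, 8.10 and 10.34 in naive cells. It rose by 3.34 ± 0.69, and by 4.75 without naive arrays 34 and 36. Mki67, which encodes the proliferation marker Ki-67, was already high on those naive arrays: 12.12 and 11.59 in Stat5ca cells, 12.70, 12.63, 12.43 and 12.84 in control cells and 7.07, 10.94, 8.22 and 10.996 in naive cells, a rise of 2.55 ± 0.80 (adjusted p = 0.0268). Kif11 (3.35 ± 0.66), a spindle motor, Nusap1 (3.32) and Top2a (3.31), which untangles DNA, rose too. Calls against naive cells were lost without 1 of the Stat5ca arrays for Mki67 (adjusted p between 0.0911 and 0.171) and with the macrophage covariate for Smc4 (adjusted p = 0.0504).

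The cell-cycle genes homology region, with the letters TTTGAA, recruits the repressor complex that keeps mitotic genes silent in resting cells. It was found on either strand in the 300-base window of 25 of 35 mitosis genes with a promoter in the table, against 20.2% of all genes. The promoter of Ccnb2, the cyclin B2 gene, is shown with its matches in capitals, at -167 and 4 bases from the start.
Ccnb2 promoter, chr9:70421505-70421804, minus strand: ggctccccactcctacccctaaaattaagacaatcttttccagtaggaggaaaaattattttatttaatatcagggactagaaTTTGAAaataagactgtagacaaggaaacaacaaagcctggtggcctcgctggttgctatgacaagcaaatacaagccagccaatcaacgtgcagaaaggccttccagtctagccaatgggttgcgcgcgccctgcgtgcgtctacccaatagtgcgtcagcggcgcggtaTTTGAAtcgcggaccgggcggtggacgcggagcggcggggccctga
Ccnb2 read 12.86 and 12.49 in Stat5ca cells, 13.03, 13.09, 13.02 and 13.04 in control cells and 7.68, 11.07, 8.65 and 10.89 in naive cells, a rise of 3.10 ± 0.67 over naive cells (adjusted p = 0.00288).

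Replication genes were lower than in control cells, however. Relative to control cells, 28 of 36 replication genes fell, against 3.35% of all genes, with a median of -0.79, and 6 of 42 mitosis genes fell, with a median of -0.62. These calls were lost without Stat5ca array 10, in a fit that kept few calls over all genes. Both Stat5ca arrays lay under every control array for 32 of the 36 replication genes and 39 of the 42 mitosis genes. Over all genes this share was 14.7%. With the macrophage mean as a covariate, 19 replication and 2 mitosis genes fell, and the difference from control cells turned to 0.95 for Ccna2, 1.03 for Ccnb2, 0.88 for Mki67, 0.79 for Kif11, 0.59 for Nusap1, 0.498 for Top2a, 0.43 for Tpx2 and 0.46 for Rrm2, none of them called in either fit. The array means of the replication list were 10.28 and 9.79 in Stat5ca cells, 10.89, 10.71, 10.61 and 10.94 in control cells and 8.80, 9.20, 9.01 and 9.20 in naive cells, with Stat5ca array 9 above array 10. Prim1, the primase subunit that starts DNA chains, read 9.86 and 9.40 in Stat5ca cells, 10.46, 10.66, 10.38 and 10.74 in control cells and 7.74, 8.18, 7.98 and 7.98 in naive cells. It rose by 1.66 ± 0.14 over naive cells (adjusted p = 1.45e-06) and fell relative to control cells (-0.93 ± 0.14). Rrm2 (2.51 ± 0.56), the ribonucleotide reductase subunit, Pole (1.80) and Rfc3 (1.62) rose over naive cells. Among 20 genes of G1 phase and its E2F factors 11 rose (7 without Stat5ca array 9) and 1 fell: Ccne2 (1.73), E2f3 (1.62) and E2f2 (1.36) were among the rises, and the fall was Ccnd1 (-0.78), with 2 falls without naive arrays 34 and 36. Cdkn2c (1.42), an inhibitor of cyclin-dependent kinases, and Rb1 (0.77), the retinoblastoma gene, rose as well. Among these, calls against naive cells ended without 1 of the Stat5ca arrays for Rrm2, E2f2 and Ccnd1 (adjusted p between 0.0639 and 0.0851) and with the macrophage covariate for Ccnd1 (adjusted p = 0.596).

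Metabolic genes rose in several pathways. Of 19 glycolysis genes 12 rose and none fell, with a median of 1.08. Beside Aldoc, Pgk1, a kinase that makes ATP in glycolysis, read 13.39 and 13.39 in Stat5ca cells, 13.54, 13.65, 13.66 and 13.58 in control cells and 10.78, 11.43, 11.21 and 11.28 in naive cells, a rise of 2.21 ± 0.13. Tpi1 (2.11 ± 0.21), the lactate exporter Slc16a3 (1.70) and Ldha (0.48), which makes lactate, rose. Hk2, a hexokinase, was not called against naive cells (0.36) and fell relative to control cells (-1.27). The glucose transporter Slc2a1 was likewise not called against naive cells (0.06) and was lower than in control cells (-0.91, called). In this group, calls against naive cells were lost without 1 of the Stat5ca arrays for Slc16a3 (adjusted p = 0.0527).

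Sterol and fatty acid synthesis rose in 22 of 26 genes and fell in none, with a median of 1.27, and 18 rose at least 2-fold. Scd2, a desaturase that makes monounsaturated fatty acids, read 13.18 and 13.25 in Stat5ca cells, 12.69, 13.28, 13.38 and 12.74 in control cells and 10.76, 10.999, 11.19 and 10.94 in naive cells, a rise of 2.24 ± 0.20. Its relative Scd1 differed more between the Stat5ca arrays, with 10.81 and 9.42 in Stat5ca cells, 8.95, 10.54, 10.32 and 8.90 in control cells and 6.34, 7.08, 6.73 and 6.90 in naive cells, the last under the background. The sterol enzymes Msmo1 (1.81), Cyp51 (1.80), Fdft1 (1.78) and Sqle (1.74) rose together. Genes of fatty acid oxidation rose in 14 of 18 cases (median 0.54, with 9 rises without Stat5ca array 10), among them Eci2 (1.29), Acadl (1.27) and Cpt1a (0.45), the carnitine transferase of the outer mitochondrial membrane. Oxidative phosphorylation genes rose in 24 of 30 cases (median 0.57), but only 1 did so at least 2-fold, Cox5a (1.09), a subunit of cytochrome c oxidase. Relative to control cells, 1 gene fell in the sterol and fatty acid list and 3 in the oxidative phosphorylation list, with none of the 3 called with either Stat5ca array left out. The calls against naive cells ended without 1 of the Stat5ca arrays for Cpt1a (adjusted p between 0.132 and 0.142), without naive arrays 34 and 36 for Cpt1a (adjusted p = 0.157) and with the macrophage covariate for Cpt1a (adjusted p = 0.369).

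Amino acid transporters fell in 4 of 12 cases (2 without Stat5ca array 10), with 1 rise (none without naive arrays 34 and 36). Slc7a11, the cystine transporter, read 5.73 and 5.66 in Stat5ca cells, 9.18, 8.73, 8.48 and 9.33 in control cells and 6.60, 6.90, 7.67 and 6.94 in naive cells. It was lower in Stat5ca cells than in naive cells (-1.33), but both groups averaged under the background. Relative to control cells the difference was -3.23, with only the control side above the background. The part of that difference above the background was thus smaller. Slc16a10 (-1.80) and Slc7a1 (-0.75), the arginine transporter, fell, and Slc7a6 (0.48) rose. Slc7a5, the leucine transporter subunit, was not called (-0.53). Of 20 genes of serine, one-carbon and nucleotide synthesis 7 rose and 2 fell (6 and 4 without naive arrays 34 and 36), and 9 fell relative to control cells (5 without Stat5ca array 9, 1 without array 10). Psat1 (1.002 from naive, -0.94 from control cells), Tyms (0.92), Phgdh (0.90) and Mthfd2 (0.70) rose over naive cells, and Gart (-0.55) and Dhodh (-0.28) fell. Here calls against naive cells were lost without 1 of the Stat5ca arrays for Slc7a11, Slc7a6, Tyms and Dhodh (adjusted p between 0.0548 and 0.437), without naive arrays 34 and 36 for Slc7a6 (adjusted p = 0.156) and with the macrophage covariate for Slc7a11, Slc16a10, Slc7a6 and Mthfd2 (adjusted p between 0.0796 and 0.357).

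Ribosome biogenesis fell in 10 of 28 genes (6 with either Stat5ca array left out) and rose in 3, with a median of -0.26. Utp20, a factor of small-subunit assembly, read 8.54 and 8.35 in Stat5ca cells, 9.54, 8.88, 8.47 and 9.59 in control cells and 10.04, 9.81, 10.07 and 9.79 in naive cells, a change of -1.48 ± 0.23. The RNA polymerase I subunits Polr1b (-0.90) and Polr1a (-0.64) fell, whereas Npm1 (0.95), Noc4l (0.81) and Ncl (0.44), abundant nucleolar proteins in the case of Npm1 and Ncl, rose. The aminoacyl-tRNA synthetases split, with 6 rises and 4 falls among 19 (1 fall with either Stat5ca array left out). Wars, the tryptophan enzyme, which interferon-gamma is known to induce, rose over naive (1.33) and control cells (0.67), Kars (0.80) and Vars (0.78) rose over naive cells, and Fars2 (-0.47) and Lars (-0.41) fell. Proteasome genes rose in 16 of 22 cases (8 without Stat5ca array 9, 10 without array 10) and fell in none (median 0.43), for example Psmb1 (0.95) and Psma5 (0.82), and none was called against control cells. Calls against naive cells were lost without 1 of the Stat5ca arrays for Ncl and Fars2 (adjusted p between 0.0632 and 0.113), without naive arrays 34 and 36 for Fars2 (adjusted p = 0.0531) and with the macrophage covariate for Ncl, Vars and Fars2 (adjusted p between 0.0679 and 0.173).

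**Figure D5:**
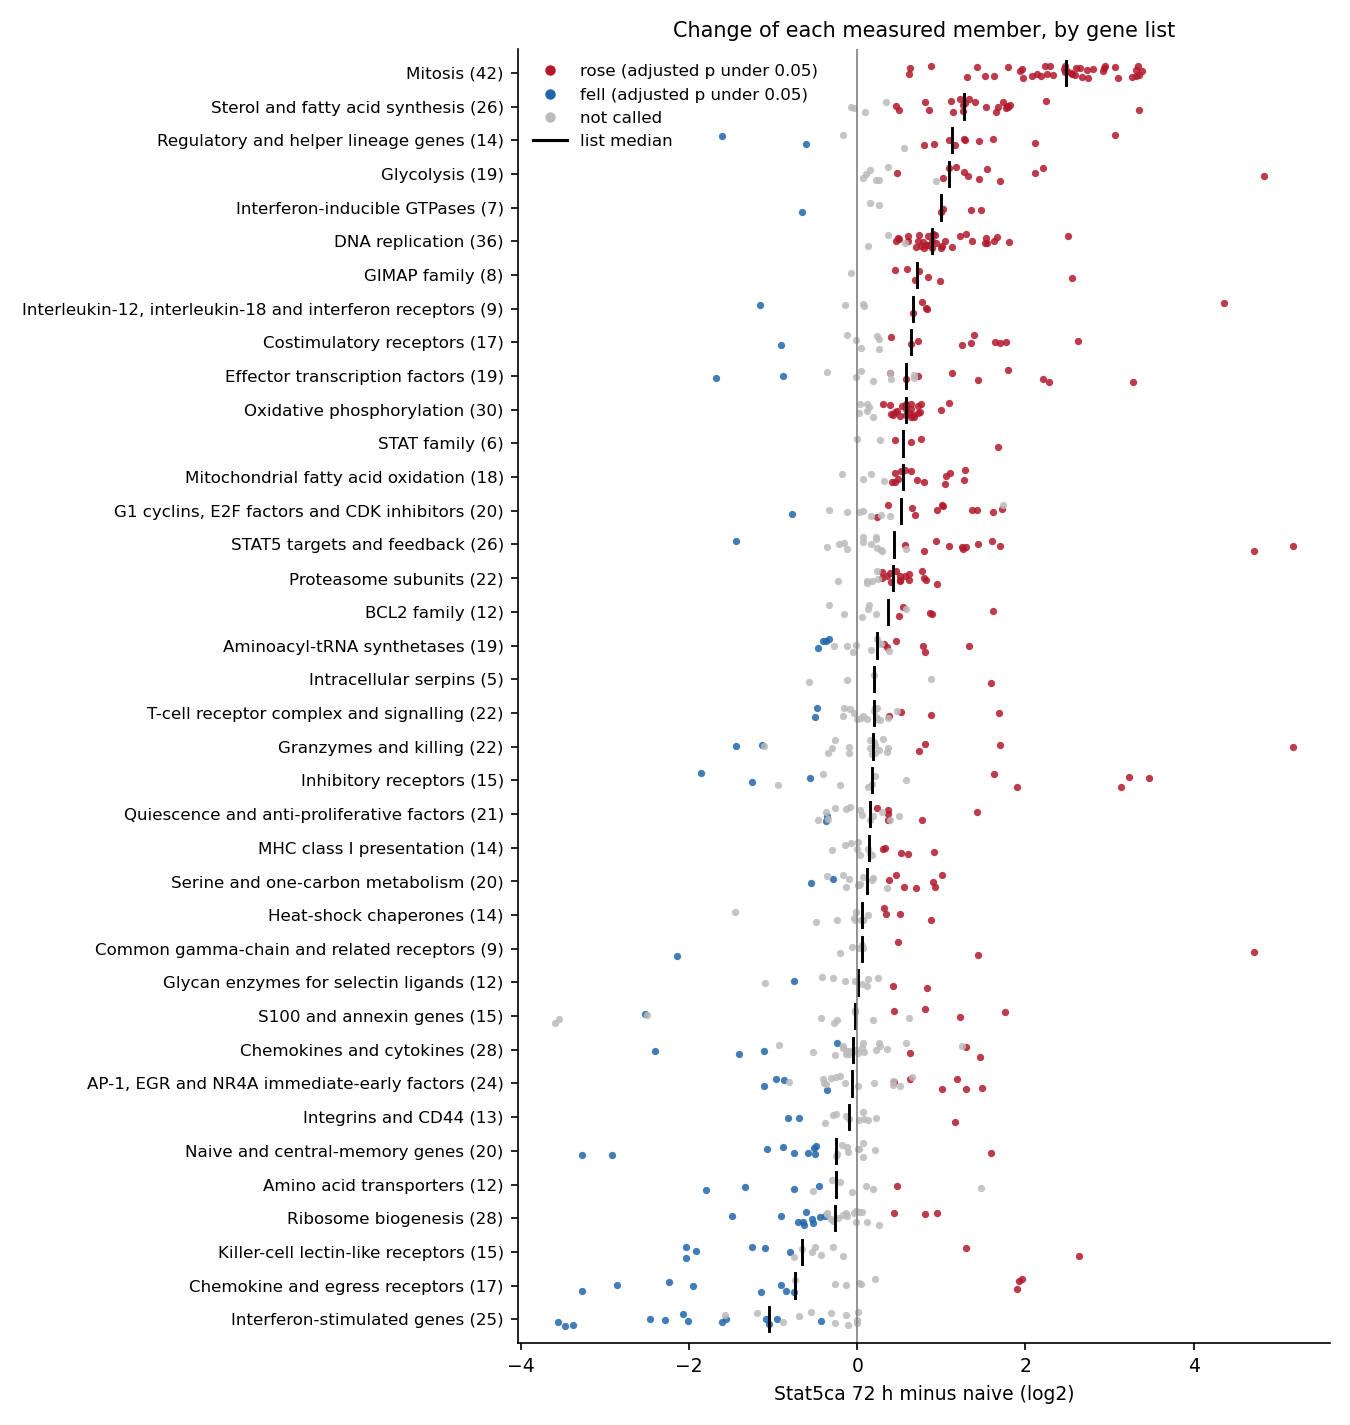
Difference in log2 signal, Stat5ca 72 h minus naive, of each measured member of 38 gene lists (1 point per gene, number measured in parentheses), with genes that rose in red, genes that fell in blue, genes not called in grey and the list median as a black line. The mitosis list lies to the right of 0 with a median of 2.48, and the interferon-stimulated genes lie to the left with a median of -1.04.

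Single immediate-early genes were called in both directions. In the immediate-early list (AP-1, EGR and NR4A families and their inhibitors), 6 of 24 rose and 4 fell. Over all genes 17.7% rose and 10.9% fell. Only 1 member fell without naive arrays 34 and 36. Relative to control cells 6 rose and 2 fell, against 2.37% and 3.35% of all genes. None of the rises over naive cells was called without Stat5ca array 9 and 2 were without array 10, which also left none of the falls. The rises over control cells numbered 1 without Stat5ca array 9. Jun, a subunit of AP-1, read 12.19 and 12.17 in Stat5ca cells, 9.61, 10.12, 9.87 and 9.68 in control cells and 11.79, 11.40, 11.42 and 11.61 in naive cells. It rose by 0.63 ± 0.19 over naive cells (adjusted p = 0.0234) and by 2.36 ± 0.19 over control cells. Zfp36, which degrades cytokine mRNAs, was not called against naive cells (0.42) and rose over control cells (1.60). Dusp1, a phosphatase of MAP kinases, fell relative to naive cells (-0.96) and rose over control cells (1.59). Fos (-1.11) and Junb (-0.87) fell, and Nr4a2 (1.48), Nr4a3 (1.30), Ier3 (1.19) and Dusp4 (1.003) rose over naive cells. Egr2 (-1.75) and Egr3 (-1.08), which receptor signals induce, fell relative to control cells, and against naive cells Egr3 fell (-0.36) and Egr2 was not called (-0.40). Among these, calls against naive cells ended without 1 of the Stat5ca arrays for Jun, Dusp1, Fos, Junb, Nr4a2, Nr4a3, Ier3, Dusp4 and Egr3 (adjusted p between 0.0589 and 0.507), without naive arrays 34 and 36 for Jun, Dusp1, Fos and Egr3 (adjusted p between 0.0764 and 0.146) and with the macrophage covariate for Jun, Dusp1, Fos, Junb, Nr4a2 and Egr3 (adjusted p between 0.0702 and 0.491).

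Of 22 genes of T-cell receptor signalling 4 rose and 2 fell, near the 17.7% and 10.9% of all genes. When naive arrays 33 and 35 were left out 9 rose, against 2 when naive arrays 34 and 36 were. The rises were also fewer with either Stat5ca array left out. Sh2d1a (1.68), the adaptor SAP, Cd3d (0.87) and the kinase Zap70 (0.52) rose, and Txk (-0.497) and Prkcq (-0.47) fell. Of 8 GIMAP genes, GTPases of lymphocyte survival, 7 rose, led by Gimap7 with 11.99 and 12.22 in Stat5ca cells, 10.58, 11.60, 11.62 and 10.74 in control cells and 9.85, 9.30, 10.12 and 8.94 in naive cells (2.55 ± 0.31). Without Stat5ca array 10 the rises numbered 4. With the macrophage mean as a covariate, 1 rose and 1 fell, and naive arrays 34 and 36, with the higher macrophage means, had the lower Gimap7 signals among naive arrays. In the BCL2 family 5 of 12 rose (3 without Stat5ca array 10) and none fell: Bcl2l11 (1.61 ± 0.18), which encodes the death-inducing BIM, Bmf (0.89), Bak1 (0.86), Bbc3 (0.54), which encodes PUMA, and the protective Bcl2l2 (0.49). All but Bcl2l2 are known to promote death. Antigen-processing and MHC class I genes rose in 5 of 14 cases and fell in none (3 and 1 without naive arrays 34 and 36, 2 rises without Stat5ca array 9, 3 without array 10), among them Psmb9 (0.92), Psmb8 (0.61) and Tap1 (0.52). In this group, calls against naive cells were lost without 1 of the Stat5ca arrays for Zap70, Txk, Bbc3, Bcl2l2 and Psmb8 (adjusted p between 0.0505 and 0.174), without naive arrays 34 and 36 for Zap70 (adjusted p = 0.129) and with the macrophage covariate for Cd3d, Zap70, Bbc3, Bcl2l2, Psmb8 and Tap1 (adjusted p between 0.0871 and 0.752).

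In the smaller lists, 4 of 14 heat-shock genes rose (2 with either Stat5ca array left out), among them Hspe1 (0.87). Interleukin receptors of the common gamma chain family rose in 3 of 9 cases and fell in 1 (3 and 3 without naive arrays 34 and 36). Of 15 S100, annexin and galectin genes 4 rose and 1 fell, with Anxa2 (1.76) and Lgals1 (1.22) among the rises (6 and 2 without naive arrays 34 and 36, 2 rises with either Stat5ca array left out). Of 13 integrin and adhesion genes 1 rose (2 without naive arrays 34 and 36), Itgb3 (1.17), and 2 fell, including Itga4 (-0.70 from naive, 0.74 from control cells), and no member fell without naive arrays 34 and 36. Of 12 glycan genes Selplg (0.42) and Fut4 (0.83) rose and St3gal1 (-0.75) fell. Among 5 serpins, Serpinb6b rose (1.59), and 3 rose without naive arrays 34 and 36. Serpinb1a, an inhibitor of neutrophil proteases, was not called against naive cells, with 9.59 and 9.54 in Stat5ca cells, 7.41, 7.98, 7.56 and 7.40 in control cells and 8.71, 11.03, 8.36 and 10.66 in naive cells. It rose over control cells (1.98 ± 0.55), and without naive arrays 34 and 36 its difference from naive cells turned to 1.03 and was called (adjusted p = 0.00228). The calls against naive cells ended without 1 of the Stat5ca arrays for Anxa2, Itga4, Selplg, Fut4 and St3gal1 (adjusted p between 0.0517 and 0.139), without naive arrays 34 and 36 for Itga4 (adjusted p = 0.0525) and with the macrophage covariate for Itga4 and Selplg (adjusted p between 0.104 and 0.19).

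Apart from Bpifa2, the 12 largest falls were genes of myeloid cells and of MHC class II. Of 18 macrophage and monocyte genes 13 fell and none rose, with a median of -3.27, of 9 dendritic cell genes 7 fell, and of 7 MHC class II genes 5 fell (with 1 rise without naive arrays 34 and 36). With either Stat5ca array left out, 7 macrophage genes fell, as did 4 dendritic cell genes without array 9 and 3 without array 10. Lyz2, the lysozyme of macrophages and neutrophils, read 6.30 and 6.36 in Stat5ca cells, under the background, 12.46, 11.51, 11.39 and 12.34 in control cells and 10.28, 13.26, 11.80 and 13.10 in naive cells. The change from naive cells was -5.78 ± 0.60, of which -4.71 lay above the background, and Lyz2 also fell relative to control cells (-5.59 ± 0.60). H2-Ea, an MHC class II chain, read 6.63 and 7.01 in Stat5ca cells, 11.73, 10.62, 10.48 and 11.61 in control cells and 11.01, 13.29, 12.41 and 13.10 in naive cells. Its change was -5.63 ± 0.49, of which -5.05 lay above the background, and Cd74, the invariant chain that travels with class II, fell by a like order (-4.03). These genes were higher on every naive array than on the Stat5ca arrays, as the rule for naming the largest falls required. Without naive arrays 34 and 36 the differences were -4.71 for Lyz2, -4.88 for H2-Ea and -3.17 for Cd74. Cybb (-4.83, -3.07 without them), Fcer1g (-4.26, -2.73), H2-Aa (-4.36, -3.46) and C1qb (-4.28, -2.44) fell in the same way. Here calls against naive cells were lost with the macrophage covariate for C1qb (adjusted p = 0.307).

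Neutrophil genes depended on the 2 deviating naive arrays. Of 10 neutrophil and mast-cell genes 1 rose and none fell by the test, although the median was -1.40, and 5 fell without naive arrays 33 and 35. Lcn2, lipocalin of neutrophil granules, which is not in that list and is named as 1 of the 12 largest falls, read 7.38 and 7.17 in Stat5ca cells, 9.14, 8.87, 8.87 and 9.02 in control cells and 7.61, 13.999, 8.86 and 13.86 in naive cells. Its fall (-3.81 ± 1.36, adjusted p = 0.0481) was not called without naive arrays 34 and 36 (-0.96, adjusted p = 0.207). Of 11 B-cell genes 4 fell (2 without naive arrays 34 and 36, 1 without Stat5ca array 9, none without array 10) and 1 rose, with 5 under the background, of 5 genes of natural killer and CD4 T cells 2 fell (1 fell and 1 rose without naive arrays 34 and 36), of 6 stromal genes 1 fell, and none of 5 erythroid genes was called. Calls against naive cells were lost without 1 of the Stat5ca arrays for Lcn2 (adjusted p between 0.169 and 0.193).

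Bpifa2, a secreted protein of salivary glands, was among the 12 largest falls, with 6.42 and 6.49 in Stat5ca cells, 6.33, 6.52, 6.02 and 6.65 in control cells and 12.90, 12.87, 11.57 and 13.60 in naive cells. It was under the background in both effector groups and high on every naive array (-6.28 ± 1.01, adjusted p = 2.97e-04), and did not follow the split between naive arrays 34 and 36 and the rest.

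The fit with the macrophage mean as a covariate changed further counts against naive cells by more than 1.5 times. Over all 19938 genes, 2478 rose and 1723 fell in that fit, against 3530 and 2169 without the covariate. The counts in the lists are read against that level. The rises numbered 1 of the 6 STAT genes, 8 of the 22 killing genes, 2 of the 21 quiescence genes, 4 of the 20 serine and nucleotide genes, 3 of the 19 synthetases, 10 of the 22 proteasome genes, 2 of the 7 GTPases, 1 of the 14 MHC class I genes, 1 of the 22 receptor signalling genes, 3 of the 24 immediate-early genes, 2 of the 14 heat-shock genes, 3 of the 12 BCL2 genes, 3 of the 5 serpins, 3 of the 13 integrin genes and 10 of the 15 S100, annexin and galectin genes. The falls numbered 4 of the 17 chemokine receptors, 1 of the 28 chemokines and cytokines, 1 of the 15 inhibitory receptors, 2 of the 12 amino acid transporters, 4 of the 22 receptor signalling genes and 2 of the 9 dendritic cell genes. None of the 15 killer lectin-like receptors, 24 immediate-early genes and 13 integrin genes fell in that fit. Of the 10 neutrophil and mast-cell genes 6 rose, and of the 18 macrophage genes, whose mean is the covariate, 7 rose and 3 fell.

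Relative to control cells at the same 72 h, 1140 of 19938 genes (5.72%) were called in the Stat5ca cells, 472 of them rises (2.37%) and 668 falls (3.35%). A 2-fold change was reached by 67 rises (0.336%) and 116 falls (0.582%). Non-overlapping groups were found for 18.2% of genes with Stat5ca higher and 14.7% with Stat5ca lower. Leaving out 1 array moved the count of calls to 98 (Stat5ca array 10), 463 (Stat5ca array 9), 591 (control array 1), 616 (control array 4) or 1794 (control array 3). Among the largest rises was Fam183b, with 10.13 and 10.38 in Stat5ca cells, 8.15, 8.60, 8.59 and 8.23 in control cells and 6.42, 6.32, 6.22 and 6.35 in naive cells. The groups did not overlap, which the rule for naming the largest rises required for control cells. The differences were 3.93 ± 0.14 over naive cells (adjusted p = 4.96e-10, with naive arrays under the background) and 1.87 ± 0.14 over control cells (adjusted p = 6.50e-06). Dntt, which encodes terminal transferase, the enzyme that adds bases during receptor rearrangement, read 10.16 and 10.61 in Stat5ca cells, 6.55, 9.24, 9.15 and 6.79 in control cells and 9.96, 9.28, 9.74 and 9.06 in naive cells. It rose over control cells (2.46 ± 0.61, adjusted p = 0.0289), whose arrays 1 and 4 lay far below arrays 2 and 3, and was not called against naive cells (0.88). Neb (1.48 over naive, 1.84 over control cells), best known from muscle, and Igsf23 (2.09 and 1.61) rose over both groups. Slc16a5, a monocarboxylate transporter, rose over control cells (1.60) and fell relative to naive cells (-1.09). The largest falls relative to control cells included Ptgs2 (-3.99), Thbs1 (-3.63), Gpnmb (-3.32) and Ly6i (-3.32), which are known from macrophages and other myeloid cells. The macrophage mean was lower on the Stat5ca arrays than on the control arrays, as given above. Among these, calls against naive cells ended without 1 of the Stat5ca arrays for Neb, Slc16a5 and Thbs1 (adjusted p between 0.0505 and 0.278), without naive arrays 34 and 36 for Thbs1 (adjusted p = 0.213) and with the macrophage covariate for Neb, Igsf23 and Thbs1 (adjusted p between 0.06 and 0.959). Calls against control cells were lost with the covariate for Il2rb, Socs1, Socs3, Ifit1, Ifit3, Irgm1, Zbp1, Cd69, Tnfsf8, Ccl9, Gzma, Rfc3, Tyms, Dntt and Igsf23 (adjusted p between 0.0529 and 0.186).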

How the data were processed

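Total RNA of purified CD8 T cells was measured on Affymetrix mouse gene arrays after amplification of 0.125 µg with the Ambion WT Expression kit, per the labels. The authors deposited log2 signals of 35557 probe sets on 19 arrays, made with Affymetrix Expression Console, per the submitters' processing notes. Neither the version nor the summarization method is given in the sources used here. These log2 values were used as deposited, between 3.14 and 14.91. A probe set was used if the platform table gave it 1 gene (21789; 1621 had several and 12147 none), and the brightest of several probe sets stood for the gene (999 genes), which left 19938 genes. In R 4.3.3, limma 3.58.1 fitted group means to the 16 TCRP1A arrays (Stat5ca, control and naive, with transferred cells included for the estimate of the spread), with no covariate, and p-values were adjusted by Benjamini-Hochberg over all genes. The T-bet-deficient arrays were left out, and the number of arrays limits the precision.

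Genes were described in 48 lists, of which 782 of 845 members were measured. The members and lists were chosen with earlier results of these data known, so the counts are descriptions. Named are the 12 largest called, non-overlapping rises and falls against naive cells, counted from the background where a mean lay under it, the 8 largest each way against control cells, up to 4 called members per list with those needed to say what the list holds, and Stat5a, Stat5b, Tbx21, Eomes, Foxp3, Pdcd1, Cish, Socs1, Socs2, Socs3 and Il2ra. Members named with only a difference complete the account of their list. Promoters are RefSeq sequences of build GRCm38.p6. Alternatives changed the arrays in the fit, the normalization, the filter on dim genes, the probe set, array weights, the spread, covariates (RNA integrity, macrophage level, Y-linked level), the fold minimum and the arrays left out.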

Additional observations from a re-analysis of the deposited data

Results flagged for a closer look

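Among 186 genes looked at in the naive and in the control group, 372 groups in all, 12 held an array whose gap to its nearest neighbour was large for the group's range by Dixon's criterion (10 naive, 2 control). Chance alone gives about 1 in 20 groups. Naive array 35 stood above the other naive arrays for Ifnar1 (11.24), Ccl22 (11.11), Klrd1 (11.61) and Ikzf2 (9.10), and below them for Ctla4 (8.72). Naive array 33 stood below the others for Gpnmb (7.42), Anxa3 (7.95), Lgals1 (12.02), Cd79b (9.58) and Flt3 (8.23). In the control group, array 4 stood below the others for Stat5a (10.50) and array 3 for Decr1 (9.11). For the 9 genes in the naive group other than Gpnmb, both Stat5ca arrays lay outside the naive range.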

How the results depend on the processing

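The count of 5699 genes called against naive cells was 3514 with only these 2 groups in the fit, 1225 with a 2-fold minimum, and 3273 to 6602 when 1 array was left out. Other settings gave 4201 (macrophage mean as a covariate) to 7309 (array weights), including 5142 without naive arrays 34 and 36. The count of 1140 against control cells was 368 with only naive and 72 h arrays in the fit, 4604 with array weights, 2234 with the Y-linked level as a covariate, 183 with a 2-fold minimum, and 98 to 1794 when 1 array was left out. The causes were not tested. With the macrophage mean as a covariate the sign turned for 126 of 760 list and named genes against naive cells, 37 of them called in either fit, and for 168 against control cells, 21 of them called in either fit. Called in either fit and turned were, against naive cells, Lcn2 (1.57), Ly6g (1.90), Ifitm6 (0.68), Serpinb1a (1.80), Ctsc (0.25), Ccr3 (0.72), Zeb2 (0.497), Blnk (0.17) and Xcr1 (0.082), and against control cells Lcn2 (1.33), Ly6g (1.77), Ifitm6 (1.79), Ccr3 (1.73), Maf (0.70) and Nrp1 (0.52), beside genes not named here. Turned with no call in either fit were, among others, Dntt (-0.28) and Ly6i (0.84) against naive cells and C1qb (0.41) and Anxa2 (0.78) against control cells. Without naive arrays 34 and 36, Serpinb1a turned to 1.03. Of 760 list genes, 663 kept their side of the threshold against naive cells without those arrays, 57 lost and 37 gained a call, and 3 changed sign with a call in either fit. With the macrophage covariate the numbers were 575, 116, 32 and 37. No paired analysis was possible because the labels do not say which arrays came from the same mouse or culture. With 2 Stat5ca arrays, leaving out 1 assumes that the other varies like the remaining groups.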

Other observations

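Groups of genes outside the lists above were chosen after their values had been seen and are given as values. Of 51 measured small nucleolar RNA genes, which guide the modification of ribosomal RNA, 39 fell and none rose relative to naive cells, with a median of -1.08. Their mean was 9.16 and 9.32 on the Stat5ca arrays, 9.47, 9.60, 9.27 and 9.501 on the control arrays, and 10.46, 10.71, 10.14 and 10.36 on the naive arrays, with no overlap between Stat5ca and naive arrays. Relative to control cells, 3 rose and 4 fell. Of 30 replication-dependent histone genes, which are made in S phase, 19 rose and none fell over naive cells, with a median of 0.89, and 5 fell relative to control cells. Their mean was 9.83 and 9.56 on the Stat5ca arrays, 9.92, 10.08, 10.01 and 9.94 on the control arrays, and 8.20, 8.92, 8.39 and 8.88 on the naive arrays.

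Of 8 measured genes of salivary secretions, Bpifa2 included, 4 fell and 4 lay under the background, with means of 5.90 and 6.05 on the Stat5ca arrays, 5.95, 5.94, 5.94 and 6.00 on the control arrays, and 8.61, 7.44, 7.49 and 8.08 on the naive arrays. Array 33, the naive array with the lowest macrophage mean, had the highest mean of these.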
